A study of Mus musculus with 7 samples.

Results

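The genes described here encode 6 ligands of the epidermal growth factor (EGF) receptor (Tgfa, Egf, Hbegf, Areg, Ereg and Btc) and the 4 receptors of the ErbB family (Egfr, Erbb2, Erbb3 and Erbb4). These 10 of the 40873 genes analysed were taken by symbol. The family was chosen by the counts of Tgfa, which was lower in every library of embryos given red blood cells (RBC) than in saline controls, so that difference is given as a description, with no test. The other 9 genes entered as family members and not by their values.

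RNA was sequenced from choroid plexus of the lateral ventricles, pooled from wild-type CD-1 mouse embryos at E15.5 (E for embryonic day) and 24 h after the treatment. The treated group (3 libraries) received washed red blood cells from the blood of donor embryos at E14.5, and the control group (4 libraries) received saline. CD-1 is an outbred stock, and all libraries carry the label batch 1. The labels do not say how the treatment was given, in what volume, or how many embryos or litters went into a pool, so p-values measure only the spread between these pools. Libraries held 4393860 to 8386928 counts. All 12 markers of choroid plexus epithelium, such as Ttr, Folr1 and Otx2, were detected, with 19350 to 24430 CPM (counts scaled for library size) in sum per library. The 15 macrophage markers summed to 417 to 600.4 CPM with RBC and 262 to 355 CPM with saline.

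EGF family ligands are made as membrane-anchored precursors and are released by metalloproteases such as ADAM17. TGF-alpha, EGF and amphiregulin bind the EGF receptor, while HB-EGF, betacellulin and epiregulin can also bind ErbB4. ErbB2 has no known soluble ligand and acts as a partner in dimers, and ErbB3 binds neuregulins but has a weak kinase, so it signals through its partners. Activated receptors feed the Ras-ERK and PI3K-AKT pathways, and the choroid plexus epithelium is a secretory epithelium that lies between blood and cerebrospinal fluid.

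The promoters of the ligand gene that was lower (Tgfa) and of a ligand gene that was almost undetected (Areg) are shown to set the letters at their starts side by side. Each run is the 250 bases before the RefSeq start, 5′ to 3′ on the strand of the gene, from the RefSeq promoter table on GRCm38.p6. Tgfa lies at chr6:86194972-86195221 (plus strand) and Areg at chr5:91139349-91139598 (plus strand) of that build. Capitals mark matches, on either strand, to the GC box GGGCGG, the TATA box TATAAA, the cAMP response element TGACGTCA or the AP-1 site TGACTCA.
Tgfa: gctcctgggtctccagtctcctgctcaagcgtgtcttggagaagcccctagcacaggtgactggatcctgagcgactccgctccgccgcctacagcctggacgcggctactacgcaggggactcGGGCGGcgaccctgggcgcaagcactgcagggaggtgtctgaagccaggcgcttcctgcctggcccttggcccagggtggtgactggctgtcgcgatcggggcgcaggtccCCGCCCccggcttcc
Areg: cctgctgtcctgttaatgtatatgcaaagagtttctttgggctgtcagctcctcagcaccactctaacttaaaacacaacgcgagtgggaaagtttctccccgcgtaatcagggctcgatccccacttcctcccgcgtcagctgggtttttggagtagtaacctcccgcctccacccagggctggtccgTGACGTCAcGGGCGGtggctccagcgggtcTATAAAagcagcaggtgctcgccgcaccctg

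The Tgfa window held 2 GC boxes and no match to the other 3 motifs, and 69.2% of its bases were G or C. The Areg window held 1 GC box, 1 TATA box and 1 cAMP response element, and 57.2% of its bases were G or C. Among the 32851 promoter windows of the table, 32.7% held a GC box, 12.4% a TATA box, 1.55% a cAMP response element and 4.46% an AP-1 site. The median window had 52.4% G or C. Windows of 7 of the 10 genes were read from that table. Erbb2 and Erbb4, whose windows were searched the same way, held none of the 4 motifs, and Egfr held 1 GC box. A match describes the letters of the window and is not a measured binding site.

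Tgfa, which encodes transforming growth factor alpha, was the most abundant ligand gene. On GRCm39 it spans chr6:86172020-86252726 (plus strand), and no other gene of the table overlaps it. It had 121, 126 and 109 counts in RBC libraries 1 to 3 and 224, 186, 298 and 143 counts in saline libraries 1 to 4. Scaled to library size by the trimmed mean of M values (TMM), these were 15.2, 19.06 and 19.7 CPM against 33.1, 29.8, 35.7 and 33.1 CPM. The highest treated library thus lay below the lowest saline library, and the 2 groups did not overlap. The fitted log2 fold change, RBC minus saline, was -0.88, or 0.544-fold, where the median of all 14869 genes tested was -0.00. In all, 9 genes (0.0605% of those tested) passed the test over all genes, and groups did not overlap with RBC lower for 4.63% of genes. Since Tgfa was picked for this difference, nothing is read from either share. In bulk tissue, fewer cells of a type that express Tgfa and less Tgfa RNA per cell cannot be told apart.

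The ratio of Tgfa to epithelial RNA of the same library is given as a description, since it reuses the Tgfa values that chose the family. Per 1000 counts of the 12 epithelial markers it had 0.787, 0.918 and 0.965 counts with RBC and 1.54, 1.43, 1.81 and 1.33 counts with saline. With Ttr left out of the markers, the values were 1.66, 2.13 and 2.34 against 3.43, 3.16, 3.69 and 3.32. The summed epithelial markers themselves overlapped between groups, at 19350 to 20610 CPM with RBC and 19650 to 24430 CPM with saline. Of these 12 markers 11 had a negative log2 fold change (median -0.10). Of the 12, 0 passed in edgeR, 2 in DESeq2 and 0 in limma-voom, where 0.0605%, 1.41% and 0.0605% of all genes tested did. In edgeR 4 had an unadjusted p under 0.05, all lower, where 642 of all 14869 genes tested did so. Groups did not overlap for 2, both lower with RBC (4.63% of all genes lay so). The part of the epithelial cells in the Tgfa values was not tested.

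Levels of different genes were compared as TPM, a transcript level that divides counts by the exon bases of each gene. With saline, Erbb2 was highest at 34.1 ± 1.59 TPM (SD, n = 4), followed by Tgfa at 21.04 ± 1.68, Erbb3 at 14.1 ± 1.65, Erbb4 at 9.73 ± 1.16 and Hbegf at 6.75 ± 1.66 TPM. Egfr, the receptor after which the family is named, stood lower at 2.43 ± 0.136 TPM, beside Btc at 2.10 ± 0.340 and Egf at 1.11 ± 0.408 TPM. Neighbours in this order were separate in every saline library except Erbb4 and Hbegf, and Egfr and Btc, whose ranges overlapped. Areg and Ereg came last, both at 0.

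With RBC, the order changed where Tgfa stood. Erbb2 was again highest at 37.8 ± 2.17 TPM (SD, n = 3), and Erbb3 (11.4 ± 4.84) and Tgfa (11.4 ± 1.53 TPM) overlapped. Erbb4 at 7.96 ± 1.10 TPM and Hbegf at 5.76 ± 1.96 TPM overlapped again, as did Btc at 2.40 ± 0.752 and Egfr at 2.19 ± 0.643 TPM. Egf followed at 0.812 ± 0.149 TPM. The exon lengths listed for Erbb4 and Egfr are 24355 and 12844 bases, against 4998 for Erbb2. Transcripts shorter than the listed exons would make the levels of Erbb4 and Egfr per length too low. With saline Egfr had a mean of 10.3 CPM and Hbegf 5.27 CPM, the reverse of their order in TPM. Erbb4 had 78.1 CPM and Erbb2 56.2 CPM with saline, also the reverse, and Erbb4 lay above Erbb2 in every saline library.

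**Figure D1:**
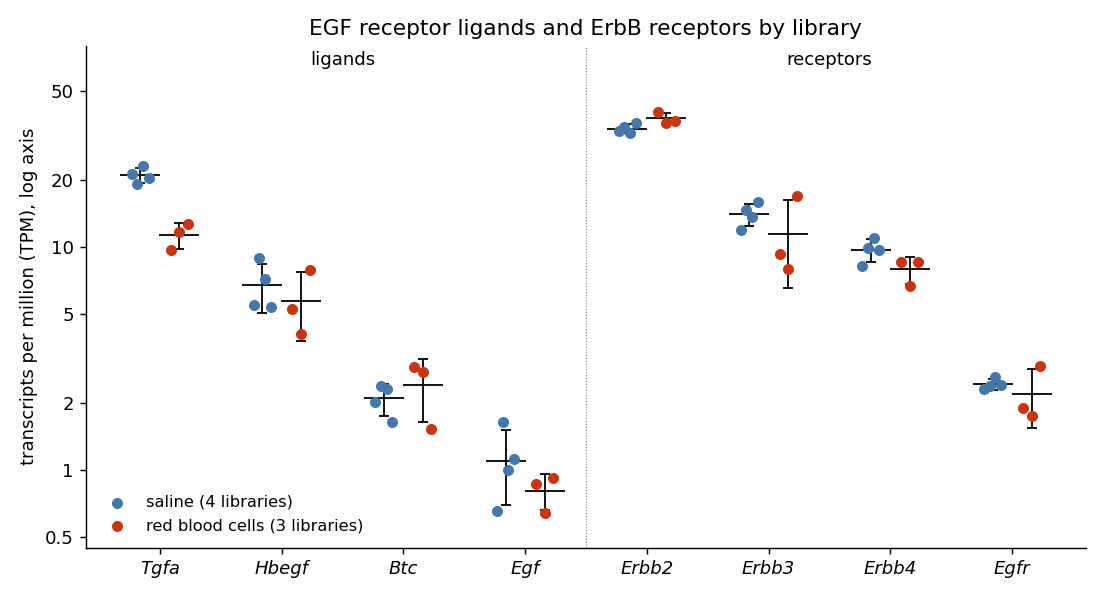
Level of 8 members in TPM (log axis) for each library, with saline in blue and RBC in red, and black marks for the mean and SD. The groups do not overlap for Tgfa, at 9.70 to 12.7 TPM with RBC and 19.3 to 23.3 TPM with saline. In TPM they do not overlap for Erbb2 either, at 36.22 to 40.3 with RBC and 32.56 to 36.14 with saline. Areg and Ereg are not drawn because they are at 0 in nearly all libraries.

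The ligand genes together were lower with RBC, and Tgfa is part of that sum. Summed over the 6 ligand genes, libraries held 19.1, 19.2 and 23.1 TPM with RBC and 29.4, 32.2, 33.8 and 28.6 TPM with saline. Without Tgfa the sum was 9.08 ± 1.48 TPM (SD, n = 3) against 9.96 ± 2.28 TPM (SD, n = 4), and the groups overlapped. Tgfa made up 50.8% to 61.0% of ligand TPM with RBC and 59.8% to 72.2% with saline, and Hbegf 21.3% to 34.3% and 18.7% to 27.7%. The receptor pool was 59.4 ± 6.45 TPM with RBC and 60.3 ± 3.55 TPM with saline. Erbb2 alone made up 56.4% to 68.8% and 54.4% to 59.5% of it, shares that rest on the exon lengths listed. The ratio of ligand to receptor TPM was 0.318 to 0.364 with RBC and 0.445 to 0.564 with saline, a difference that contains the one Tgfa was picked for.

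**Figure D2:**
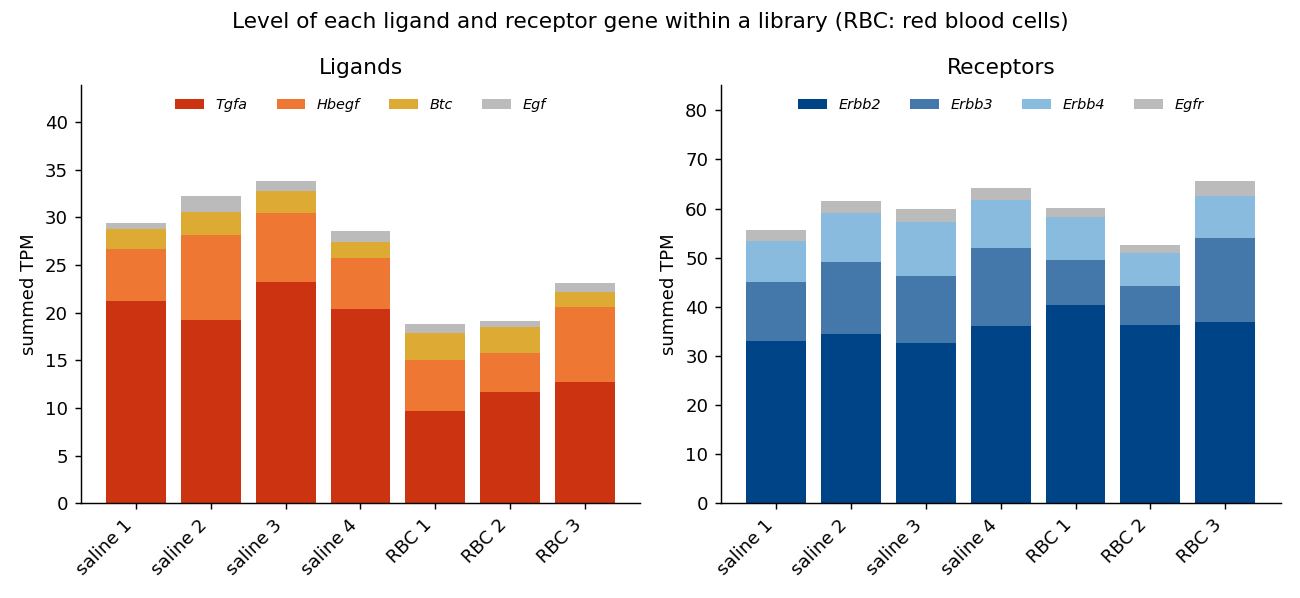
Summed TPM of the ligand genes (left) and the receptor genes (right) in each library, stacked by gene from 0. The Tgfa block is shorter in the 3 RBC libraries, while the receptor bars lie between 52.7 and 65.5 TPM with RBC and between 55.7 and 64.2 TPM with saline.

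Ratios within a library need no scaling to library size, but those given here reuse the Tgfa values that chose the family, so nothing is read from their separation. Tgfa stood at 5.11, 6.68 and 4.34 times the TPM of Egfr with RBC and at 9.18, 8.12, 8.86 and 8.41 times with saline. Against Erbb2 the ratio was 0.241, 0.323 and 0.344 against 0.641, 0.559, 0.715 and 0.564. Neither ratio overlapped between groups, and the ratio to Erbb4 did not overlap either (1.13 to 1.75 against 1.94 to 2.58). Ratios of Tgfa to Erbb3 (0.749 to 1.46 against 1.28 to 1.77) and to Hbegf (1.60 to 2.87 against 2.16 to 3.86) overlapped.

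Among the other 9 members, 7 had enough counts to be tested, and 0 of them passed the quasi-likelihood test of edgeR over all genes. DESeq2 and limma-voom also called 0, where DESeq2 called 1.41% and limma-voom 0.0605% of the genes they tested. In edgeR 1 of the 7, Erbb4, had an unadjusted p under 0.05 (9.54% of all genes did). In CPM the libraries of the groups overlapped for all 7 (they did not for 9.59% of all genes). In TPM those of Erbb2 did not overlap, with the lowest RBC library at 36.22 and the highest saline library at 36.14 TPM. Of the 7, 5 had a negative and 2 a positive log2 fold change, with a median of -0.24. Without RBC 3, 1 of them (Erbb3, lower) passed in edgeR. That fit called 283 genes over all genes, against 9 with all 7 libraries.

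Hbegf, the heparin-binding ligand, was the next ligand by level. It had 33, 22 and 34 counts with RBC and 29, 43, 46 and 19 with saline, or 3.33 to 6.16 CPM against 4.29 to 6.90 CPM. Its log2 fold change was -0.24 ± 0.28 (SE, edgeR adjusted p = 0.879), with a 95% interval from 0.558-fold to 1.29-fold. Btc, which encodes betacellulin, had 22, 18 and 8 counts with RBC and 13, 14, 18 and 7 with saline. Its log2 fold change was 0.22 ± 0.33 (edgeR adjusted p = 0.916, 95% interval 0.710-fold to 1.92-fold). Egf itself had 11, 7 and 8 counts against 7, 16, 13 and 8, and a log2 fold change of -0.41 ± 0.40 (edgeR adjusted p = 0.839, 95% interval 0.409-fold to 1.38-fold). With 1 library left out, the log2 fold change of Hbegf ran from -0.50 (without RBC 3) to -0.059 (without RBC 2), and that of Btc from 0.078 (without RBC 1) to 0.45 (without RBC 3). On GRCm39 Egf spans chr3:129471223-129548971 (minus strand), and Hbegf lies on chromosome 18. Both share exon bases with a gene of the opposite strand (506 and 406 bases) that had 1 and 2 counts over all libraries.

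Areg, which encodes amphiregulin, had 1 count in RBC 1 and 0 in the other libraries, and Ereg, which encodes epiregulin, had 0 in all 7. A count of 3, the limit that a count of 0 allows, corresponds to 0.358 CPM in the deepest library and 0.683 CPM in the shallowest, counting error only. On GRCm39 these genes lie with Btc on chromosome 5, Ereg at chr5:91222476-91241508 and Areg at chr5:91287458-91296291 (plus strand), and Btc at chr5:91505120-91550853 (minus strand). Of these 3 neighbouring ligand genes only Btc had more than 1 count in a library. Epgn, the epigen gene and a further member of the EGF family, had 1 count in each group.

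Erbb2, the receptor without a ligand of its own, had 529, 411 and 334 counts with RBC and 368, 350, 439 and 267 with saline. That is 66.4, 62.2 and 60.5 CPM against 54.4, 56.2, 52.5 and 61.8 CPM, with saline 4 above RBC 3. Its log2 fold change was 0.17 ± 0.08 (SE, edgeR adjusted p = 0.553), and the 95% interval ran from 0.995-fold to 1.27-fold. Erbb2 spans chr11:98303310-98328542 (plus strand) on GRCm39 and shares 9 exon bases with Mien1 on the opposite strand, which had 1165 counts over all libraries against 2698 of Erbb2, and no source used here says whether strand was used in counting.

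Erbb4, a receptor for neuregulins and several EGF receptor ligands, had 68.8, 56.0 and 68.8 CPM with RBC and 65.9, 78.8, 86.8 and 80.8 CPM with saline. Saline 1 lay below 2 of the treated libraries. The gene spans chr1:68071063-69147756 (minus strand) on GRCm39. The log2 fold change was -0.28 ± 0.11 (SE, unadjusted p = 0.0258, edgeR adjusted p = 0.397), with a 95% interval from 0.702-fold to 0.973-fold. Markers of neural progenitors and neurons, cells that can also express Erbb4, had negative log2 fold changes for 8 of 8 genes (median -0.80). Of all 14869 genes tested, 7448 did. Of the 8, 0 passed in edgeR, DESeq2 or limma-voom (0.0605%, 1.41% and 0.0605% of all genes tested did). In edgeR 0 had an unadjusted p under 0.05 (9.54% of all genes did). Their summed level was 80.3, 25.3 and 94.7 CPM in RBC libraries 1 to 3, none of the 8 being at 0. In saline libraries 1 to 4 it was 136, 132, 104 and 69.6 CPM. The part of these cells in the Erbb4 values was not tested.

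Egfr, which binds all 6 ligands, had 8.04, 7.71 and 12.3 CPM with RBC and 9.75, 9.95, 10.9 and 10.7 CPM with saline. Its log2 fold change was -0.15 ± 0.19 (SE, edgeR adjusted p = 0.890, 95% interval 0.674-fold to 1.20-fold). It ran from -0.39 without RBC 3 to -0.035 without RBC 2. Erbb3, the neuregulin receptor with a weak kinase, had 18.5, 16.5 and 33.3 CPM against 23.6, 28.7, 26.4 and 32.7 CPM. Its log2 fold change was -0.30 ± 0.24 (edgeR adjusted p = 0.789, 95% interval 0.559-fold to 1.18-fold). Egfr spans chr11:16700153-16868158 (plus strand) and Erbb3 chr10:128403392-128425504 (minus strand) on GRCm39. For both receptors RBC 3 was the highest and RBC 2 the lowest of the 7 libraries. Without RBC 3, where 283 genes passed over all genes, Erbb3 had a log2 fold change of -0.66 and passed in edgeR (adjusted p = 0.0447). Without RBC 2 and saline 4, Erbb3 had -0.04 (edgeR adjusted p = 0.998). Over all 17 alternatives its adjusted p ran from 0.0447 to 0.9997.

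Markers of stromal cells followed the same order across the treated libraries, but not across the saline libraries. The 8 mesenchyme markers, Col1a1, Dcn and Pdgfra among them, summed to 1869, 1586 and 2954 CPM in RBC libraries 1 to 3. In saline libraries 1 to 4 they summed to 2088, 2106, 2075 and 1917 CPM. Mural cell markers summed to 440.2, 383 and 645 CPM (saline 510.2, 479.9, 471.8 and 432.6). Endothelial markers summed to 909.9, 810.4 and 1233 CPM (saline 1033, 996.2, 972.5 and 970.7). None of these 3 lists had a marker at 0. Of the 24 genes listed for the 3 cell types 23 were tested and 0 passed in edgeR. In edgeR 1, of the mesenchyme list, had an unadjusted p under 0.05 (9.54% of all genes did). DESeq2 called 1 (1.41% of all genes). Hbegf had the same order within the treated group, at 4.14, 3.33 and 6.16 CPM. The part of these cells in the values of Egfr, Erbb3 and Hbegf was not tested. Markers of Schwann and neural crest cells, which depend on ErbB3, summed to 13.2, 14.1 and 11.7 CPM in RBC libraries 1 to 3. In saline libraries 1 to 4 they summed to 12.5, 10.5, 14.4 and 11.4 CPM.

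**Figure D3:**
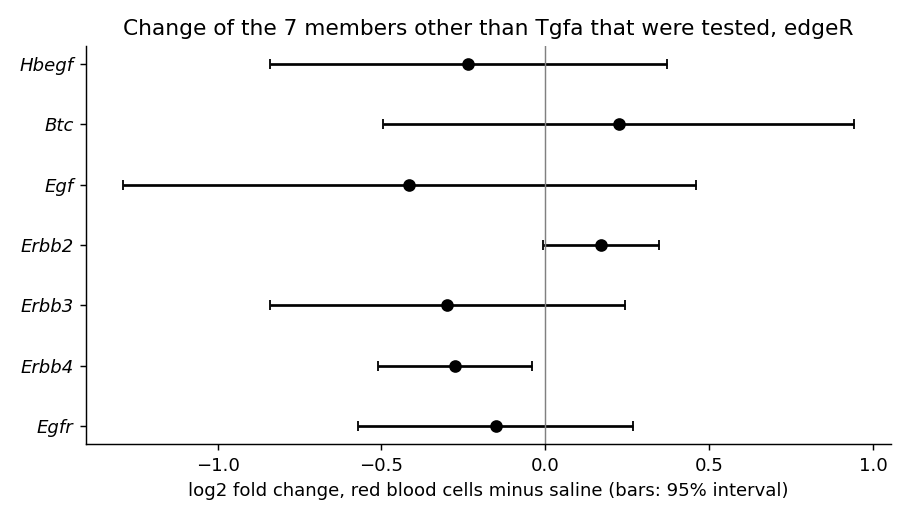
Log2 fold change, RBC minus saline, of the 7 members other than Tgfa that were tested (points), with 95% intervals from edgeR (bars). The interval of Erbb4 lies below 0, with an adjusted p of 0.397 over all genes, and those of the other 6 include 0.

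The 5 genes whose values over the 7 libraries lay nearest to those of Tgfa were Ntn1, Fn3k, Osbp2, Iqch and Smtnl2. Compared were 11240 tested genes with a mean count of at least 50, with symbols of Gm plus digits or ending in Rik left out. Likeness was the root mean square difference of log2 CPM after the mean of each gene was taken off. It was 0.165 for Ntn1 (netrin-1, a guidance cue of axons) and 0.202, 0.204, 0.206 and 0.213 for the others, where Tgfa differed from its own mean by 0.448. Ntn1 had 40.4, 42.8 and 40.2 CPM with RBC and 85.0, 79.4, 70.3 and 80.8 CPM with saline. Fn3k, which encodes the kinase that removes fructosamines from proteins, had 8.54 to 10.3 CPM against 13.2 to 14.6 CPM. The oxysterol-binding protein gene Osbp2 had 12.1 to 15.03 CPM against 15.9 to 21.9 CPM. Iqch had 4.24 to 6.34 against 9.75 to 11.4 CPM, and Smtnl2 5.61 to 7.03 against 9.47 to 11.1 CPM. In each of the 5 the groups did not overlap, which the choice by likeness to Tgfa favours. In that order Erbb4 came at place 385, Egfr at 906, Erbb3 at 1098 and Erbb2 at 9442, while Hbegf, Btc and Egf lay below that mean count and were not compared.

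**Figure D4:**
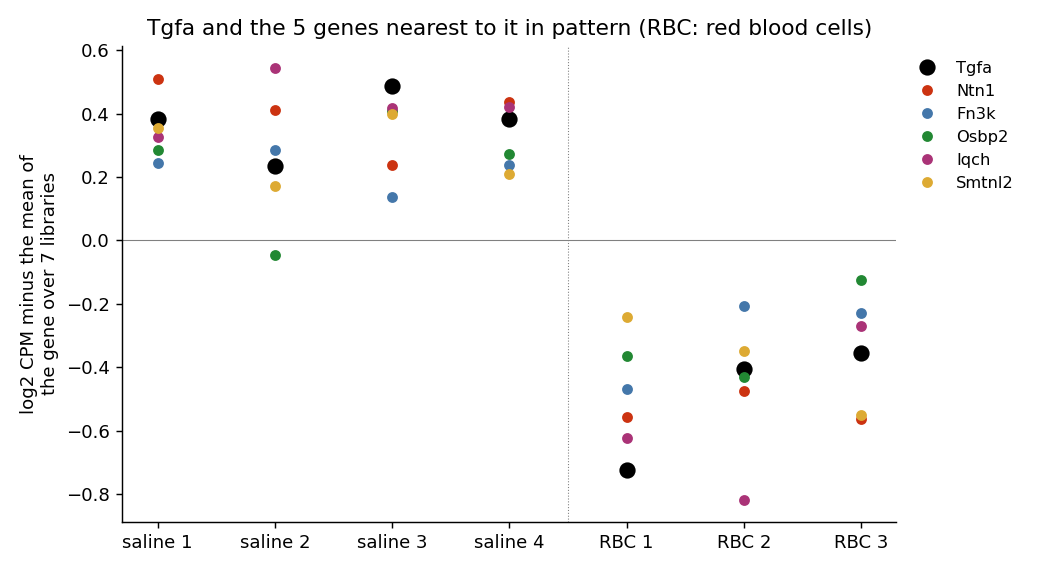
Log2 CPM of Tgfa and of the 5 genes nearest to it, each minus its own mean over the 7 libraries, with saline libraries on the left and RBC libraries on the right. Tgfa lies above its mean in the 4 saline libraries and below it in the 3 RBC libraries, lowest in RBC 1.

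Around these genes, 69 others were listed by role, of which 64 were tested. Of the 64, 0 passed in edgeR, where 0.0605% of all genes tested did. In edgeR 4 had an unadjusted p under 0.05, all 4 higher (5.22% of all genes did so). DESeq2 called 1 (Adam8) and limma-voom 0, where they called 1.41% and 0.0605% of the genes they tested. Without RBC 3, edgeR called 2 (Adam8 and Braf) of the 64 and 283 genes over all genes. Their median log2 fold change was 0.05, with 42 above and 22 below 0. Groups did not overlap for 3 of the 64 (Adam8, Dusp6 and Fos), all higher with RBC, where 4.96% of all genes lay so.

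Among the other EGF-family ligands, Nrg1, which encodes neuregulin 1, a ligand of ErbB3 and ErbB4, had 26.5 ± 3.83 CPM (SD, n = 3) in the RBC group and 23.0 ± 4.09 CPM (SD, n = 4) in the saline group (edgeR adjusted p = 0.767). Nrg2 had 7.86 ± 1.23 and 7.75 ± 1.43 CPM (edgeR adjusted p = 0.988). Nrg3 and Nrg4 fell below the count filter, with sums of 13 and 15 counts in the RBC group and 25 and 30 in the saline group.

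Proteases and partners that release or export the ligands were all above the count filter (12 of 12), and their median log2 fold change was 0.07. Adam8, a metalloprotease made by leukocytes among other cells, had 16.8, 19.7 and 6.52 CPM with RBC and 4.14, 2.73, 3.83 and 3.71 CPM with saline. Its log2 fold change was 2.00 ± 0.34 (SE), which did not pass in edgeR (adjusted p = 0.0809) and passed in DESeq2 (adjusted p = 0.000147). Without RBC 3 it was 2.33 (edgeR adjusted p = 0.000522), and over the 17 alternatives its adjusted p ran from 0.000147 to 0.297. Summed macrophage markers, which include Adgre1, Csf1r and C1qa, were 417, 600.4 and 575 CPM in RBC libraries 1 to 3. All 15 had positive log2 fold changes, and none was at 0. Of the 15, 1 passed in edgeR, 10 in DESeq2 and 0 in limma-voom, where 0.0605%, 1.41% and 0.0605% of all genes tested did. In edgeR 13 had an unadjusted p under 0.05, all higher with RBC (5.22% of all genes did so). Groups did not overlap for 11, all higher with RBC (4.96% of all genes lay so). Neutrophil markers, such as S100a8 and S100a9, summed to 3.52, 68.3 and 7.85 CPM with RBC and 1.93 to 16.3 CPM with saline, with Ly6g at 0. The part of these cells in the Adam8 values was not tested. Rhbdf2, which encodes an inactive rhomboid that carries ADAM17 to the cell surface, had 23.4 ± 7.93 and 18.9 ± 2.81 CPM (edgeR adjusted p = 0.726). Its partner Frmd8 had 40.7 ± 2.09 and 36.1 ± 4.07 CPM (edgeR adjusted p = 0.656).

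Genes that restrain the receptors were tested for 11 of 12, with a median log2 fold change of 0.07 and 0 calls in edgeR. Sh3kbp1, an adaptor of receptor endocytosis, had 42.1 ± 7.51 CPM with RBC and 35.0 ± 2.39 CPM with saline (edgeR adjusted p = 0.506). Socs5, which lowers EGF receptor levels, had 21.7 ± 1.85 and 25.2 ± 2.14 CPM (edgeR adjusted p = 0.597). Lrig1, a transmembrane inhibitor of ErbB receptors, had 29.2 ± 2.07 and 26.4 ± 2.04 CPM (edgeR adjusted p = 0.753).

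The cascade from adaptors through Ras, ERK and PI3K was tested for 22 of 22 genes. Their median log2 fold change was 0.02, and the range ran from -0.06 to 0.31. Braf, the kinase at the top of that range, had 243 ± 40.3 CPM with RBC and 196 ± 19.9 CPM with saline (edgeR adjusted p = 0.377). It passed when RBC 3 was left out (log2 fold change 0.44, edgeR adjusted p = 0.0294), where 283 genes passed over all genes. Nras had 195 ± 23.9 and 177 ± 9.56 CPM (edgeR adjusted p = 0.665), and Pik3ca, a catalytic subunit of PI3K, had a log2 fold change of 0.14 (edgeR adjusted p = 0.707).

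ERK target and feedback genes were tested for 17 of 18, with a median log2 fold change of 0.05, the lowest at -0.64 and the highest at 0.91. The lowest was Dusp4, a phosphatase that acts on ERK, with 11.6 ± 3.30 CPM with RBC and 17.95 ± 9.29 CPM with saline (edgeR adjusted p = 0.714). Saline 2 had 31.4 CPM of it, and without that library the log2 fold change was -0.22. Ier3, an immediate early gene, had 10.7 ± 5.71 and 6.47 ± 3.65 CPM (edgeR adjusted p = 0.692), and Phlda1 18.0 ± 12.2 and 13.1 ± 1.91 CPM (edgeR adjusted p = 0.849). Fos and Dusp6 were chosen after their values were seen. Fos, a subunit of AP-1, had 2.89 to 3.78 CPM against 1.16 to 2.22 CPM (log2 fold change 0.91, unadjusted p = 0.0155, edgeR adjusted p = 0.319). Dusp6, an ERK phosphatase that ERK signalling induces, had a log2 fold change of 0.16 (edgeR adjusted p = 0.661).

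**Figure D5:**
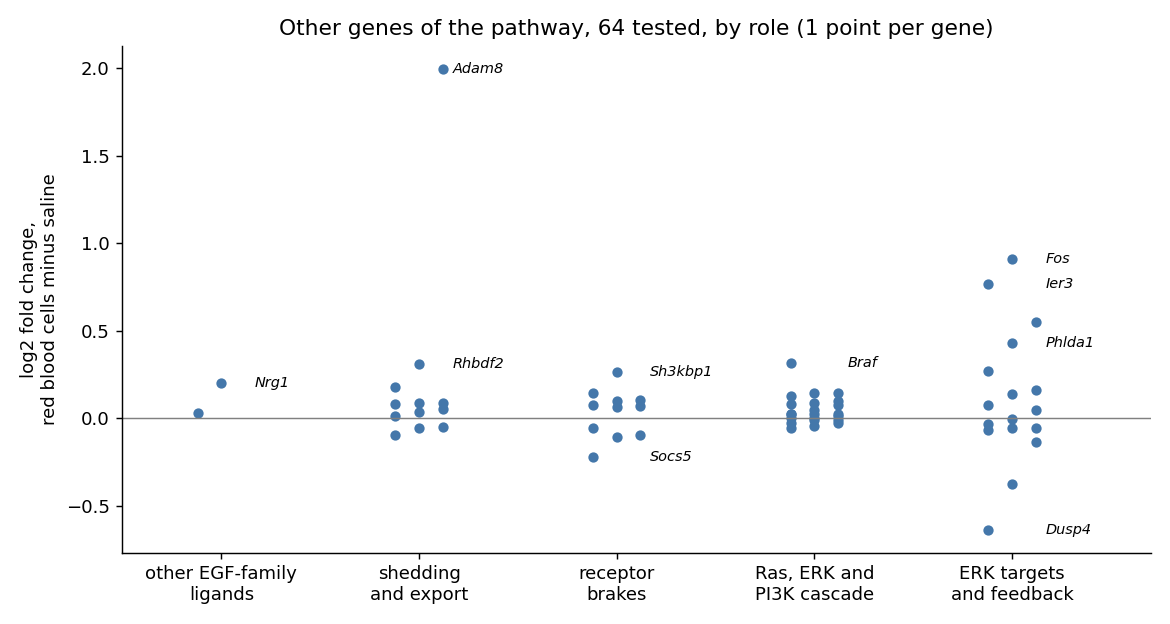
Log2 fold change, RBC minus saline, of the 64 tested genes around the family, with 1 point per gene and 1 column per role. Adam8 stands highest at 2.00, and 0 of the 64 passed in edgeR.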

How the data were processed

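Values are raw counts per gene in a deposited table that the authors made with cutadapt 2.5, STAR 2.6.1b and featureCounts 2.0.6 on GRCm39, per the submitters' processing notes. Gene positions and exon lengths are those of the table. Which annotation release was used, and how strand and multi-mapping reads were handled, is not stated there. The lines of 6 genes, none of them listed here, are broken over 2 lines and were left out (0.107% of counts). Nrdc was matched through its older symbol.

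Counts were tested with edgeR 4.0.16 (quasi-likelihood F test, robust, TMM, filterByExpr, two-sided) under R 4.3.3. P-values were adjusted by Benjamini-Hochberg over 14869 genes, with a threshold of 0.05. TPM used all 40873 genes, and log2 CPM a prior count of 2. Standard errors came from the F statistic. The common biological coefficient of variation was 13.7%. Alternatives were DESeq2 1.42.0, limma-voom (limma 3.58.1), other normalizations and filters, a replicate block and libraries left out. The tests were tried on simulated counts.

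The members and lists were chosen with earlier results of these data known. Named genes were the members, up to 3 per role with the largest log2 fold change at a mean count of at least 50, and the 5 genes nearest to Tgfa. Figures were drawn with matplotlib 3.10.9.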

Additional observations from a re-analysis of the deposited data

Results flagged for a closer look

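Of 51 measures checked for a saline library far from the other 3, 1 stood out, where chance gives about 1 in 20. The summed mesenchyme markers were 1917 CPM in saline 4 and 2075 to 2106 CPM in the other saline libraries.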

How the results depend on the processing

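Over 17 alternatives the log2 fold change of Tgfa ran from -0.95 to -0.76. Tgfa passed in edgeR or the tool used instead under 11 of them and not under 6, and since it was picked for its difference nothing is read from that. Tgfa and the 5 genes nearest to it kept their direction in all 102 pairs of a gene and an alternative. The way these genes were chosen favours that, so nothing is read from it. Of 351 pairs of a tested gene and an alternative, 340 kept their direction and side of the threshold, 5 passed it and 6 changed sign. With 1 library left out, Nrg2 ran from -0.073 to 0.15 (below 0 without RBC 1, saline 1 or saline 2), Rhbdf2 from -0.00052 to 0.45 (below 0 without RBC 2) and Phlda1 from -0.26 to 0.74 (below 0 without RBC 3). Rhbdf2 was at -0.033 when RBC 2 and saline 4 were both left out. The cause was not tested. Genes called over all genes numbered 9, against 280 with DESeq2, 136 without the count filter and 16 without robust estimation. They numbered 40 with RBC 2 and saline 4 both left out, and 1 to 283 with 1 library left out (283 without RBC 3). With a replicate block 2 genes were called, and 0 of the other members or pathway genes. Correlations of deviations from the group means were -0.008, -0.173 and -0.173 for libraries of the same replicate number. For libraries of different numbers they ran from -0.213 to 0.261. With so few libraries these values cannot tell whether replicate numbers pair the libraries. The count of called members other than Tgfa was 0, and 0 to 1 with 1 library left out (Erbb3, without RBC 3). Pathway genes called numbered 0, against 1 with DESeq2 and 1 without the count filter (Adam8 in both), and 0 to 2 with 1 library left out (Adam8 and Braf, without RBC 3). Without a length term Tgfa took place 3 in saline instead of 2. Depth limits Egf, Btc and Hbegf, with mean counts of 10.0 to 32.3.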
